A study of Sus scrofa with 2 samples.

Results

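The 46 genes described here encode the mTORC1 kinase complex and the proteins that tell it about growth factors and amino acids, and they were followed in ZBTB16 CUT&Tag peak lists from immature spermatogonia of pig testis. ZBTB16 (PLZF) is a zinc finger factor that marks undifferentiated spermatogonia. The data were 1 group of 2 libraries, replicate 1 and replicate 2, each made from 100000 wild-type cells, with no treatment named in the labels. The labels do not say whether the libraries came from separate animals or cultures, so values are given per library, with no mean or SD. In CUT&Tag an antibody against a DNA-bound protein guides a transposase, and the fragments it cuts out are sequenced. Peak lists hold no expression values, so the labelled cell type could not be set against its markers, and an IgG control was not analysed here.

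The genes were chosen by name, with earlier results of these data known. Bound means that both libraries held a peak of the authors' promoter class for that gene, a class that covers the 3 kb upstream of a transcription start site (TSS). All 46 names were found in the RefSeq gene table of Sscrofa11.1, the genome build of the files, among 16491 protein-coding genes with a unique symbol. The lists held 10273 peaks in replicate 1 and 7301 in replicate 2, with a median of 16 and 14 fragments at the summit, so a gene without a peak is one where none was detected at this depth. Folds are the authors' own values, each relative to the background of the library in question.

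mTORC1 is a kinase complex that promotes protein synthesis and restrains autophagy when nutrients and growth factors are at hand. Amino acids act through the RAG GTPases, which hold mTORC1 on the lysosome with the LAMTOR scaffold and are set by the GATOR complexes and by FLCN. Growth factors act through the TSC complex, which keeps the GTPase RHEB inactive. In mouse spermatogonial progenitors ZBTB16 is known to raise DDIT4, an mTORC1 inhibitor, and mTORC1 activity is linked to loss of self-renewal.

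Of the 46 genes, 17 were bound (37.0%), against 20.8% of all 16491 genes. Bound genes sat at several levels of the pathway: the kinase itself (MTOR), its subunit MLST8, the GTPases RRAGA and RRAGC, the RAG regulators FLCN and FNIP1, and 6 inhibitors. A promoter peak in a single library was found at 9 further genes (6 in replicate 1 and 3 in replicate 2). Over all 16491 genes it was found at 1974 in replicate 1 alone and 676 in replicate 2 alone. A peak of another class was found at 6 members and no assigned peak at 14, counts not made over all genes. By library, 23 members (50.0%) had a promoter peak in replicate 1, against 32.8% of all genes, and 20 (43.5%) in replicate 2, against 24.9%. Of the 23 in replicate 1, 17 recurred in replicate 2 (73.9%), against 63.5% over all genes. Of the 20 in replicate 2, 17 recurred in replicate 1 (85.0%), against 83.6%.

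**Figure D1:**
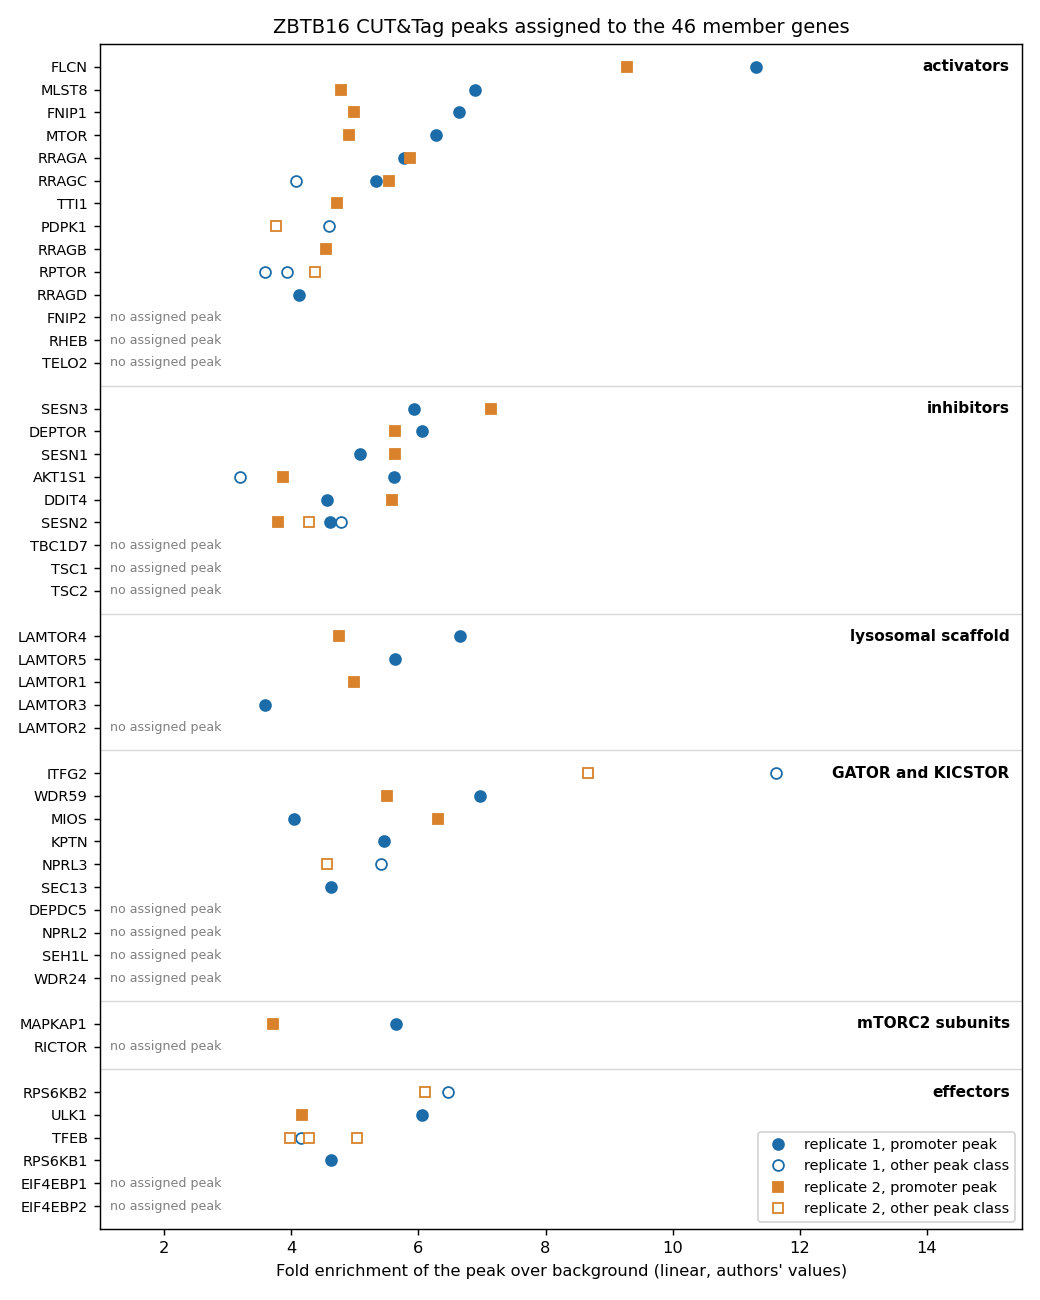
Fold enrichment (linear, authors' values) of every peak assigned to the 46 members, with genes grouped by role. Circles are replicate 1 and squares replicate 2, filled for promoter peaks and open for other classes. FLCN and ITFG2 lie apart at 8.67-fold or more in both libraries, and 14 genes have no assigned peak.

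The roles differed in how many of their genes were bound. Inhibitors had 6 of 9 (66.7%), activators 6 of 14 (42.9%), GATOR and KICSTOR subunits 2 of 10 (20.0%), the lysosomal scaffold 1 of 5 (20.0%), downstream effectors 1 of 6 (16.7%) and the mTORC2 subunits 1 of 2 (50.0%), beside 20.8% of all genes. The roles hold 2 to 14 genes each and the differences between them were not tested. GATOR1, which switches RRAGA and RRAGB off, was counted with GATOR and KICSTOR and not with the inhibitors. Of its 3 genes 0 were bound, so the inhibitor share depends on how roles were assigned. Shares of the scaffold, of GATOR and KICSTOR and of the effectors lay near that of all genes.

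**Figure D2:**
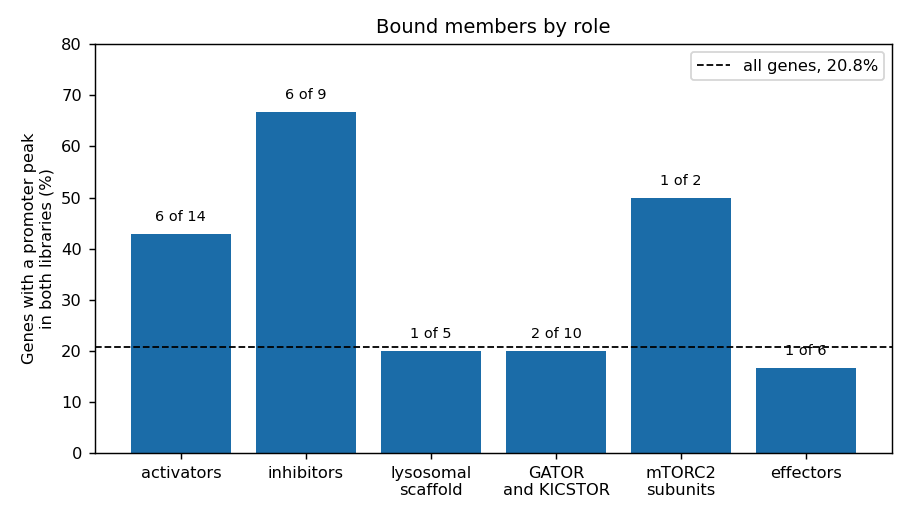
Share of genes (%) with a promoter peak in both libraries, by role, with counts above the bars. The dashed line is the share over all genes. Inhibitors and activators stand above the line, while scaffold, GATOR and effector genes lie close to it.

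Among the activators, the FLCN promoter carried the strongest promoter peak of the 46 genes. FLCN (folliculin) stimulates GTP hydrolysis by RRAGC and RRAGD and so helps the RAG GTPases hold mTORC1. Its peak on chromosome 12 (61028890 to 61029521 in replicate 1) was 11.3-fold in replicate 1 and 9.29-fold in replicate 2, ranks 14 of 6251 and 63 of 4673 promoter peaks. At the summit lay 68 fragments in replicate 1 (52.8 to 86.2, an exact 95% Poisson interval as used throughout) and 43 in replicate 2 (31.1 to 57.9), over backgrounds of 5.10 and 3.74 fragments. The 2 peaks covered nearly the same bases, and the summits lay 44 and 66 bp downstream of the TSS.

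FNIP1, the partner of FLCN, was bound as well (6.65-fold with 35 fragments in replicate 1, interval 24.4 to 48.7, and 4.99-fold with 23 in replicate 2, 14.6 to 34.5). Its peaks on chromosome 2 were wide, at 1112 and 1342 bp, and reached past the TSS on both sides. FNIP2, the other partner, had no assigned peak, and the nearest peak to either end of the gene was 93832 bp away in replicate 1 and 32043 bp away in replicate 2.

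The RAG GTPases act as pairs of RRAGA or RRAGB with RRAGC or RRAGD. RRAGA was bound on chromosome 1 (203774372 to 203774778), at 5.77-fold with 17 fragments in replicate 1 (9.90 to 27.2) and 5.87-fold with 12 in replicate 2 (6.20 to 21.0). RRAGC was bound on chromosome 6 (94803100 to 94803623), at 5.33-fold and 5.54-fold, with 17 fragments in each library (9.90 to 27.2). Its peaks lay wholly upstream, with their nearest edges 83 and 56 bp from the TSS. Those of the other 16 bound genes covered the TSS in both libraries. Over all bound genes, the strongest promoter peak covered the TSS at 86.9% in replicate 1 and 84.2% in replicate 2. RRAGB on the X chromosome had a promoter peak in replicate 2 alone (4.55-fold, 8 fragments), and RRAGD in replicate 1 alone (4.13-fold, 9 fragments). So 1 partner of each kind was bound and the other was seen in a single library, on 8 or 9 fragments, with Poisson intervals of 3.45 to 15.8 and 4.12 to 17.1.

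Of the mTORC1 core, MTOR, the kinase, was bound on chromosome 6 (6.27-fold with 20 fragments in replicate 1 and 4.91-fold with 12 in replicate 2). MLST8, a subunit of mTORC1 and mTORC2 that stabilises the kinase domain, was bound on chromosome 3 (6.89-fold with 29 fragments and 4.78-fold with 18). RPTOR, the subunit that recruits mTORC1 substrates, had no promoter peak by the authors' class. It had overlapping 5′ UTR peaks in both libraries (3.93-fold with 13 fragments and 4.37-fold with 11) whose nearest edges were 177 and 344 bp downstream of the TSS.

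RHEB, the GTPase that switches mTORC1 on, had no assigned peak. A peak assigned to the noncoding neighbour LOC102162623 lay 295 bp from the lower end of RHEB in replicate 1 (6.88-fold) and 447 bp from it in replicate 2 (5.73-fold). PDPK1, which phosphorylates AKT and S6 kinases, had a peak 7268 bp upstream in replicate 1 (4.59-fold) and 7184 bp upstream in replicate 2 (3.76-fold). TTI1, which with TELO2 chaperones the folding of mTOR and related kinases, shares its 5′ end with RPRD1B on the other strand, the 2 genes overlapping by 69 bp. The authors gave the replicate 2 peak there to TTI1 (4.72-fold, 13 fragments) and the replicate 1 peak to RPRD1B (6.63-fold, 23 fragments), so TTI1 does not count as bound although both libraries had a peak there. TELO2 had no assigned peak.

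Among the inhibitors, all 3 sestrins were bound. Sestrins bind GATOR2, and SESN2 is known as a leucine sensor. SESN3 had the strongest promoter of the 3, at 5.93-fold with 30 fragments in replicate 1 (20.2 to 42.8) and 7.15-fold with 31 in replicate 2 (21.1 to 44.0). On chromosome 9 its replicate 1 peak ran from 27278643 to 27279672, and the replicate 2 peak overlapped the upstream part of it by 474 bp. SESN2 was bound at 4.62-fold with 18 fragments and 3.79-fold with 11, and carried a second peak of 5′ UTR class in both libraries (4.78-fold and 4.28-fold).

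The SESN1 peaks lay at the start of a short transcript, not at the outer end of the gene. They were 5.09-fold with 17 fragments in replicate 1 (9.90 to 27.2) and 5.63-fold with 14 in replicate 2 (7.65 to 23.5), on chromosome 1 from 75078677 to 75079278 in replicate 1. The gene reaches to 75170374 and lies on the minus strand. A peak over that far 5′ end, assigned to the neighbour CEP57L1, was also present in both libraries (5.77-fold and 4.34-fold).

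DDIT4 (REDD1), which is induced by stress and releases the TSC complex to shut RHEB off, was bound on chromosome 14 (75117057 to 75118053 in replicate 1). The fold was 4.56 in replicate 1 and 5.58 in replicate 2, and each summit held 32 fragments (21.9 to 45.2). Among the 17 bound genes FLCN (68), AKT1S1 (42) and FNIP1 (35) had more fragments in replicate 1, and FLCN (43) in replicate 2. By fold DDIT4 ranked lower, exceeding or equalling 26.4% of promoter peaks in replicate 1 and 60.5% in replicate 2. It no longer counted as bound when promoter peaks above the median fold were required in both libraries. The local background at DDIT4 was 6.24 and 4.91 fragments, beside medians of 2.79 and 2.45 over the bound genes. The peaks were 997 and 965 bp wide, with summits 4 bp upstream and 53 bp downstream of the TSS.

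DEPTOR and AKT1S1 (PRAS40) bind mTOR complexes and restrain the kinase, and both were bound. DEPTOR had 6.06-fold with 14 fragments in replicate 1 (7.65 to 23.5) and 5.63-fold with 13 in replicate 2 (6.92 to 22.2). Its peaks on chromosome 4 (19179857 to 19180201 and 19179927 to 19180474) also held the last base of DSCC1 (19180002), and the replicate 2 peak held the lower end of TAF2 (19180215), so this signal cannot be given to DEPTOR alone. Inside the DEPTOR gene, a stronger peak was assigned to DSCC1 in both libraries (8.59-fold and 6.56-fold). AKT1S1 had 5.62-fold with 42 fragments and 3.87-fold with 21. Its peaks were within 1 kb of the lower end of TBC1D17, which overlaps it.

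The TSC complex (TSC1, TSC2 and TBC1D7) had no assigned peak at any of its 3 genes. At TSC1 a peak over the upper end of the gene was assigned to LOC110256471 in both libraries (5.08-fold and 3.64-fold). At TSC2 a peak over or beside the upper end was assigned to NTHL1 in both (5.19-fold and 4.12-fold). NTHL1 is the head-to-head neighbour of TSC2 in human. The peak nearest to either end of TBC1D7 was 112233 bp away in both libraries.

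The lysosomal scaffold was bound at LAMTOR4, 1 of its 5 subunits, at 6.65-fold with 27 fragments and 4.75-fold with 16. The start site lies inside a gene record on chromosome 3 that spans 8119338 to 8171790, so neither outer end of the record is near the peak. LAMTOR5 (5.63-fold, 18 fragments) and LAMTOR3 (3.60-fold, 8 fragments) had promoter peaks in replicate 1 alone, and LAMTOR1, which anchors the scaffold in the lysosomal membrane, in replicate 2 alone (4.99-fold, 17 fragments). LAMTOR2 had no assigned peak. By a single library, 3 of 5 subunits had a promoter peak in replicate 1 and 2 of 5 in replicate 2, with LAMTOR4 as the shared one.

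GATOR1 (NPRL2, NPRL3, DEPDC5) switches RRAGA and RRAGB off, GATOR2 opposes GATOR1, and KICSTOR tethers GATOR1 to the lysosome. GATOR2 had 2 bound genes of 5. WDR59 on chromosome 6 (12681946 to 12682642) was 6.96-fold with 24 fragments in replicate 1 (15.4 to 35.7) and 5.50-fold with 18 in replicate 2 (10.7 to 28.4). MIOS was 4.04-fold with 12 fragments and 6.31-fold with 19. SEC13, also a subunit of COPII coats and the nuclear pore, had a promoter peak in replicate 1 alone (4.62-fold, 12 fragments), and SEH1L, also of the nuclear pore, and WDR24 had none.

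No GATOR1 or KICSTOR gene was bound by promoter class, yet a KICSTOR gene carried one of the strongest peaks of the set. ITFG2 on chromosome 5 (67305003 to 67305874) had 11.6-fold with 71 fragments in replicate 1 (55.5 to 89.6) and 8.67-fold with 41 in replicate 2 (29.4 to 55.6). These folds exceeded or equalled those of 99.8% and 97.5% of promoter peaks. The peaks began 323 and 335 bp downstream of the TSS and were classed as 5′ UTR, so they do not count. NPRL3 had 5′ UTR peaks as well, 391 bp downstream of the TSS in both libraries (5.41-fold with 22 fragments and 4.56-fold with 14). HBQ1 lies over the same stretch. NPRL2 had no assigned peak, but a peak assigned to LOC100517372 covered the upper end of the gene in both libraries (4.23-fold and 4.48-fold). KPTN had a promoter peak in replicate 1 alone (5.47-fold, 19 fragments), and DEPDC5 had no assigned peak.

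Of the mTORC2 subunits, MAPKAP1 (SIN1) was bound (5.64-fold with 16 fragments and 3.72-fold with 8), while RICTOR, the defining subunit of mTORC2, had no assigned peak. Downstream, ULK1, the kinase that starts autophagy and is inhibited by mTORC1, was bound (6.07-fold with 22 fragments and 4.18-fold with 14). RPS6KB1, the main S6 kinase, had a promoter peak in replicate 1 alone (4.63-fold, 15 fragments). The upper end of TUBD1 (36111306) lies inside this peak, so the signal cannot be given to RPS6KB1 alone. The peaks of RPS6KB2 lay 4114 and 4104 bp upstream, inside another gene (6.47-fold and 6.10-fold). TFEB, the lysosomal transcription factor held in the cytoplasm by mTORC1, had a 5′ UTR peak in replicate 1 (4.15-fold) that overlapped an intronic peak in replicate 2 (3.98-fold), with nearest edges 202 and 344 bp downstream of the TSS. EIF4EBP1 and EIF4EBP2, the translation repressors that mTORC1 phosphorylates, had no assigned peak.

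**Figure D3:**
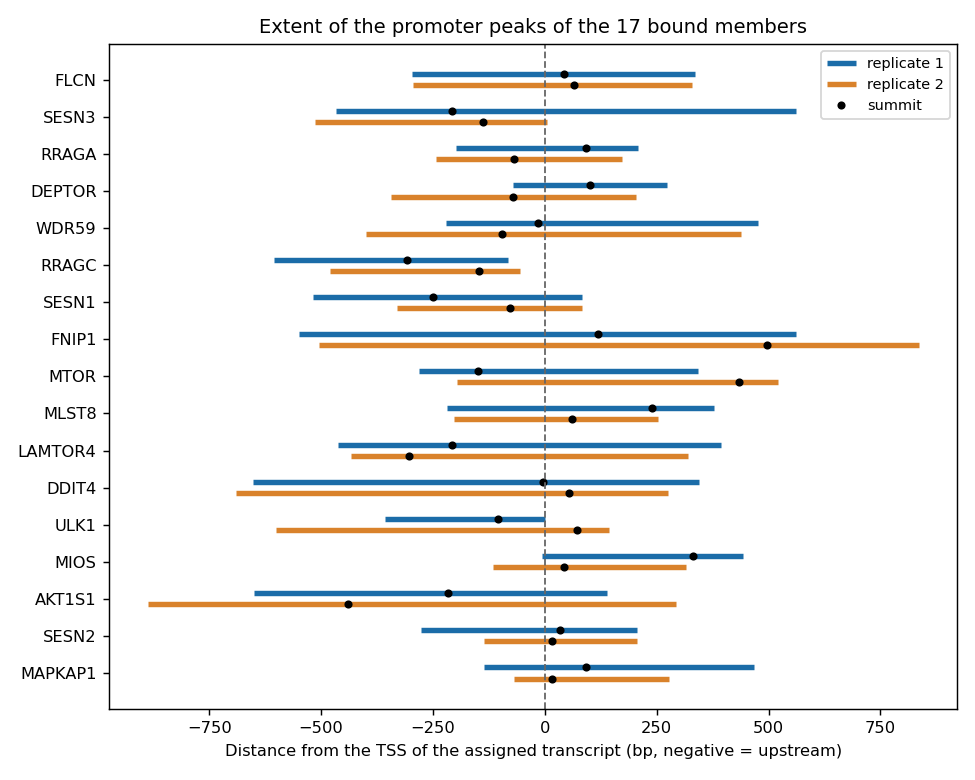
Extent of the strongest promoter peak of each bound gene around the TSS of its assigned transcript, in bp with upstream negative. Blue bars are replicate 1, orange bars replicate 2 and black dots the summits. The bars of 16 genes cross the TSS in both libraries, and those of RRAGC end upstream of it. Over all bound genes, 86.9% cross it in replicate 1 and 84.2% in replicate 2.

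In height and place the bound genes were close to bound genes at large. Their median fold was 5.93 in replicate 1 and 5.50 in replicate 2, beside 5.85 and 5.45 over the 3438 bound genes of all. The median summit held 22 and 17 fragments in both sets. Median widths were 604 and 548 bp for the 17 genes and 662 and 550 bp for all bound genes. In replicate 1, 10 of 17 summits lay within 200 bp of the TSS (58.8%), beside 63.8% of all bound genes, and in replicate 2, 13 of 17 (76.5%), beside 64.0%. The peaks of the 2 libraries overlapped at all 17 genes, by 275 to 1068 bp. Over all genes, promoter peaks overlapped at 3407 of the 3438 bound ones. The fold was higher in replicate 2 at 6 of the 17 genes (35.3%), beside 37.0% of all bound genes.

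**Figure D4:**
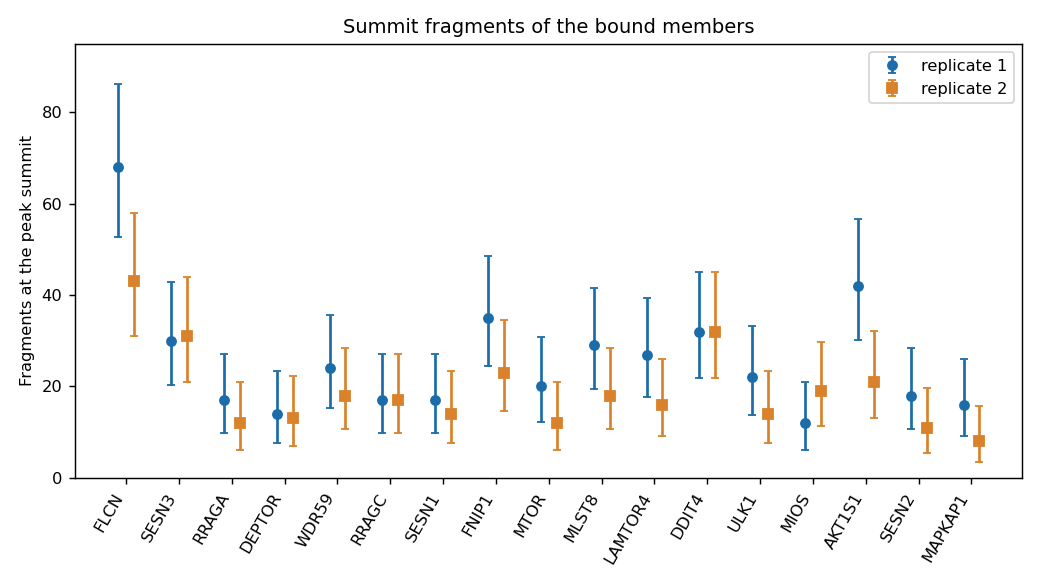
Fragments at the summit of each bound gene's promoter peak, with exact 95% Poisson intervals that cover counting error only. Circles are replicate 1 and squares replicate 2, not scaled for depth. The intervals of the 2 libraries overlap at all 17 genes, and FLCN has the highest count in both.

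The Poisson intervals of the 2 libraries overlapped at each of the 17 genes, which were defined by a peak in both. The intervals are wide at these counts, so their overlap does not measure how well the libraries agree. By the ratio of fragments, not scaled for depth, the widest splits were at MAPKAP1 (16 and 8 fragments in replicate 1 and replicate 2) and AKT1S1 (42 and 21). By the ratio of folds the widest was at MIOS (4.04-fold and 6.31-fold). The lowest background of the lists was 1.23 times higher in replicate 1, so replicate 1 was the deeper library by this measure. The 9 genes with a promoter peak in a single library had 8 to 19 summit fragments and folds of 3.60 to 5.63. The bound genes had 8 to 68 fragments and folds of 3.72 to 11.3, so the groups overlapped.

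The members' share stood above that of all genes under each of the 11 rules tried, and how far depended on the rule. With any assigned peak in both libraries 50.0% of members counted, against 28.2% of all genes. With the promoter and 5′ UTR classes together it was 43.5% against 24.0%, where ITFG2, NPRL3 and RPTOR came in. By any peak within 1 kb of either gene end it was 56.5% against 29.0%, with RHEB, TSC1, TSC2 and NPRL2 added and LAMTOR4 lost. Genes recorded without a chromosome cannot meet this rule, although they count among all genes, while every member has a chromosome. The rule also takes peaks at 3′ ends, as at PDPK1, where the peak of KCTD5 lies at the 3′ end of the gene. With promoter peaks above the median fold of all peaks in both libraries it was 15.2% against 11.6%, and the kept genes were FLCN, SESN3, RRAGA, DEPTOR, WDR59, RRAGC and SESN1. Lists of equal length gave 34.8% against 19.2%, promoter peaks within 1 kb of the TSS 37.0% against 20.5%, promoter peaks that overlapped by at least 1 bp 37.0% against 20.7%, and by 50% of each peak 32.6% against 17.6%. No test of the list was made, since the genes were chosen with results of these data known.

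**Figure D5:**
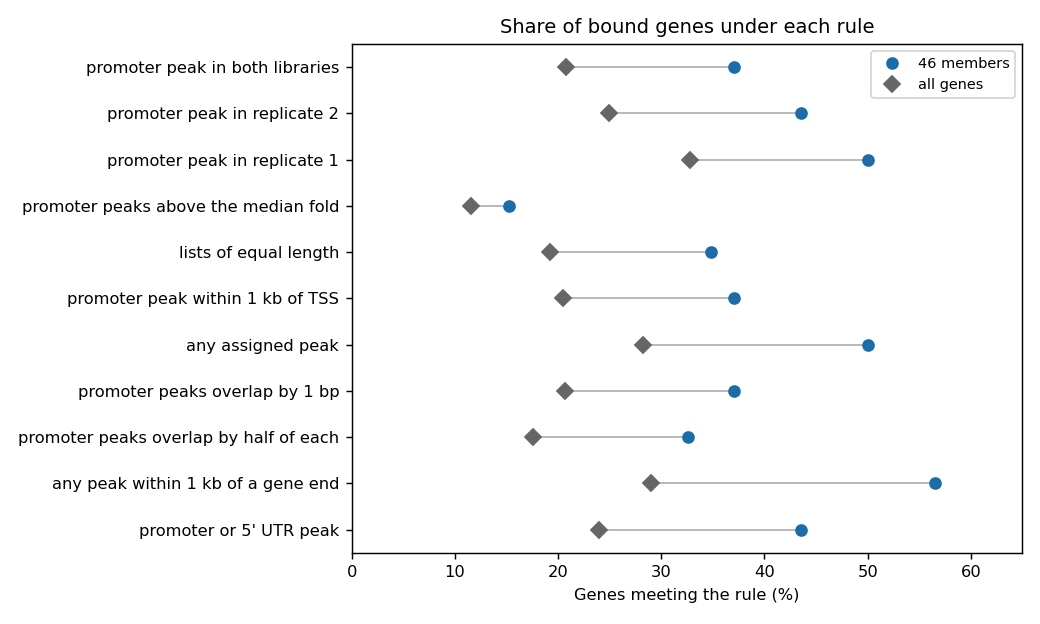
Share (%) of the 46 members (blue circles) and of all 16491 genes (grey diamonds) that meet each of 11 rules for a bound gene. The gap is narrowest for promoter peaks above the median fold (15.2% and 11.6%) and widest for any peak within 1 kb of a gene end (56.5% and 29.0%). Genes recorded without a chromosome cannot meet the gene-end rule, while every member has a chromosome.

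Some members are neighbours in the genome. PDPK1, MLST8, TSC2, TELO2, WDR24 and NPRL3 lie within 2.11 Mb of chromosome 3, from 39429928 to 41540719. Of these 6 genes 1 was bound (MLST8), and of the 100 protein-coding genes of the stretch 17 were bound (17%), against 20.8% of all genes. The 17 bound genes of the pathway were spread over 8 chromosomes.

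Among 55 other genes of the same pathway, 18 were bound (32.7%), against 20.8% of all genes. The strongest were GSK3B, a kinase of insulin and WNT signalling (10.2-fold and 8.56-fold), and SREBF2, a regulator of sterol synthesis (7.90-fold and 6.53-fold). ATG13, the partner of ULK1, followed (7.46-fold and 6.24-fold), then MAF1, a repressor of RNA polymerase III that mTORC1 phosphorylates (6.84-fold and 6.03-fold). STRADA, which activates STK11, the kinase upstream of AMPK, had 7.30-fold and 5.71-fold. TFE3, a relative of TFEB, had 5.84-fold and 6.05-fold, PDCD4, a translation inhibitor that S6 kinase marks for degradation, 5.54-fold and 7.32-fold, and TTI2, the partner of TELO2 and TTI1, 5.39-fold and 6.73-fold.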

How the data were processed

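Peak lists of 2 libraries came from the authors, made per library on build Sscrofa11.1 (from the submitters' processing notes). Their aligner, peak caller, control and annotation software: not given in the sources used here. Per the file headers, each deposited peak has a fold enrichment (a linear ratio over background), a −log10 p-value and −log10 q-value (lowest 1.31 in both lists), a class, 1 assigned gene and a distance to the TSS. Promoter peaks lay −2995 to 0 bp from the TSS. The deposited score was not used.

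Whole summit fragments were solved from fold = (fragments + 1)/(background + 1) and a Poisson tail. All peaks (100% in both lists) fitted to a tolerance of 1e-05 of the p-value column, and the step was tested on simulated data. Poisson intervals (95%) cover counting error only. The gene table was limited to protein-coding genes with unique symbols, leaving out LOC names, and held 55 of 59 other pathway genes. Fragment intervals are given for the 8 bound members highest by the lower of their percentile ranks of fold among promoter peaks and for DDIT4. The 8 highest other pathway genes are named. Intervals for ITFG2, RRAGB and RRAGD, the smaller complexes and the chromosome 3 stretch were added after values were seen. The members and lists were chosen with earlier results of these data known. With 1 condition, no test was run. Promoter sequence was not analysed here. Software was Python 3.11.15 with matplotlib 3.10.9, scipy 1.17.1, pandas 2.3.3 and numpy 2.4.6.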

Additional observations from a re-analysis of the deposited data

How the results depend on the processing

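Under 10 alternatives the number of bound members ranged from 7 to 26, beside 17, and stayed within 1.5 times of it under 8. With promoter peaks above the median fold it was 7, with 3 activators, 3 inhibitors, 0 scaffold, 1 GATOR and KICSTOR, 0 mTORC2 and 0 effector genes, and 8 other pathway genes. By any peak within 1 kb of either gene end it was 26, with 10 activators, 0 scaffold, 5 GATOR and KICSTOR and 2 effector genes. That alternative and the one with 5′ UTR peaks were chosen after seeing the data, and the planned one by 5′ ends was not run because the gene table gives no strand. With 1 library left out, members ranged from 20 to 23, activators from 7 to 8, scaffold genes from 2 to 3, GATOR and KICSTOR genes from 2 to 4, effectors from 1 to 2 and other pathway genes from 22 to 32 (beside 18, with replicate 2 left out). Any assigned peak gave 4 GATOR and KICSTOR and 3 effector genes, the 5′ UTR class 4 GATOR and KICSTOR genes, lists of equal length 1 such gene, and overlap by 50% of each peak 0 effectors. Roles of 2 to 14 genes move by large shares when 1 gene changes. Inhibitors remained at 6 under 7 of the 10 alternatives. Summits of 8 to 19 fragments limit what can be said of the 9 members seen in a single library. No paired analysis was possible because there was 1 group.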
